A study of Homo sapiens with 44 samples.

Results

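HOX genes encode homeodomain transcription factors that give cells their position along the head-to-tail axis. In humans they lie in the HOXA, HOXB, HOXC and HOXD clusters, and a gene's number, its paralogue group, gives its place counted from the 3' end of the cluster. The genes described here are the 39 protein-coding genes whose symbol is HOX, a cluster letter and a number, out of 60499 gene identifiers in the deposited tables. HOXA holds 11 of them, HOXB 10, HOXC 9 and HOXD 9. All 39 were found, 28 had enough counts to be tested and 11 did not (HOXA6, HOXA7, HOXC10, HOXC11, HOXC12, HOXD3, HOXD4, HOXD10, HOXD11, HOXD12 and HOXD13).

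In the embryo, HOX genes of low number are switched on earlier and further forward than those of high number, an order called colinearity. Retinoic acid, Wnt signals and CDX factors act on the clusters, and Polycomb proteins keep them silent in embryonic stem cells. HOX proteins bind DNA together with partners of the TALE class (PBX, MEIS and PKNOX). HOXB1 is known to mark a posterior part of the second heart field, a pool of heart progenitors.

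The samples are 44 wells of the established human embryonic stem cell line H1, taken through cardiac differentiation in 12 groups. Pluripotent cells were kept on the laminin LN-521 (n = 3), and all other wells were coated with LN-521 plus LN-221. Day 0 cells were in Nutristem medium (n = 3). Cells of days 1 and 3 (n = 3 each) were in RPMI 1640 with insulin-free B27 and CHIR99021, which switches on the Wnt pathway by blocking the kinase GSK3. IWP2, which blocks the release of Wnt proteins, was in the medium of day 5 (n = 5), and insulin-free B27 was used without an inhibitor for days 7 and 9 (n = 5 each). Days 11 (n = 5), 14, 20, 30 and 90 (n = 3 each) were in RPMI 1640 with CTS B-27. The labels call the wells biological replicates of 1 cell line and name no separate cultures, so p-values measure the spread between these wells, which may be technical. No day has wells both with and without CHIR99021 or IWP2, so time, medium and inhibitor cannot be told apart.

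Total estimated counts ranged from 6937136 to 33498022 per well and RNA integrity numbers (RIN) from 7.4 to 10. The labels were checked against marker lists, each given as its summed level in CPM (counts as a share of the scaled library total). The 5 pluripotency markers were at 7321 to 7367 CPM in the pluripotent wells and at 459.9 to 532 CPM at day 9. The 5 mesoderm markers stood at 742 to 1212 CPM at day 1, and the 5 cardiomyocyte markers at 340 to 706 CPM at day 5 and 6588 to 15052 CPM at day 9. Endoderm and liver markers were at 476 to 6103 CPM at day 9, so those wells held more than cardiomyocytes. In such bulk samples, fewer cells of a type and less RNA per cell cannot be told apart. The 3 wells of lowest depth, day 14 replicate 2, day 20 replicate 2 and day 30 replicate 10, stood apart in the HOX genes, and their values are given before the late time points.

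Promoters of 3 genes called at day 1 are shown because HOX genes with these promoters were among the first to be switched on. They were also picked because their sequence holds known binding words of the factors described below. HOXA4 and HOXA9, not called at day 1, hold such words too, and a link of the words with the day 1 rise was not tested. The promoters shown are the 250 bases before the RefSeq start in GRCh38.p14, written 5' to 3' on the minus strand. They lie at chr17:48531012-48531261 (HOXB1), chr7:27102684-27102933 (HOXA2) and chr7:27152584-27152833 (HOXA3). Capitals mark matches on either strand to any of 5 words: TGATNNAT (HOX with PBX), TGACAG (MEIS or PKNOX), AGGTCA (a retinoic acid receptor site), TTTATG (CDX) and TATAAA (the start-site word of many promoters).
HOXB1: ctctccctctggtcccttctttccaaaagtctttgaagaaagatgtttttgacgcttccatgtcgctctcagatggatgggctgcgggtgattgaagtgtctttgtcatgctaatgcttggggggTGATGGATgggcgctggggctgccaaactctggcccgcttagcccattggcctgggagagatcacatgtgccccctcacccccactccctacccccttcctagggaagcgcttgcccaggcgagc
HOXA2: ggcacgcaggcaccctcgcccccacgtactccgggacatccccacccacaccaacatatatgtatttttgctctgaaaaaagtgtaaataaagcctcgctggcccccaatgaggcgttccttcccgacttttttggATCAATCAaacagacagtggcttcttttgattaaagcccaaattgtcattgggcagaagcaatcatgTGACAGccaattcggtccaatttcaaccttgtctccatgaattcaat
HOXA3: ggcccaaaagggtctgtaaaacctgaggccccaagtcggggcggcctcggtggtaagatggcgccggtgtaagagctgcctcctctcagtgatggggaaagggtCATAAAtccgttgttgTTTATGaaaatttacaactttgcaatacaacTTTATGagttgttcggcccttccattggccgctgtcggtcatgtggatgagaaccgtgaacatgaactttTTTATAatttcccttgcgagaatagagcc
In HOXB1 the capitals are 1 HOX-PBX word, at position -125 from the start. In HOXA2 they are a HOX-PBX word at -114 and a MEIS word at -47, and in HOXA3 CDX words at -146, -130 and -99 and a start-site word at -29. The RefSeq promoter table held 20 of the 39 genes, each with 300 bases, 250 before and 50 after the start. HOXC4 and HOXC5 have the same window in it, which is counted once for each gene and holds none of the words. In those windows, counting both strands, the HOX-PBX word was in 3 of 20 (15%), against 7.60% of all 27305 promoters, and the MEIS word in 4 (20%), against 15.9%. The CDX word was in 3 (15%) against 11.0%, the start-site word in 4 (20%) against 11.95%, and the retinoic acid receptor word in 0 against 13.9%. A match is a word in the sequence and not a shown binding site, and no match says only that the letters are not in this window. The HOX windows held a median of 22.5 CG pairs, against 14 for all promoters.

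HOX genes were close to silent in the starting cells. The summed level of all 39 was 0.22, 0.43 and 0.16 TPM (the deposited level per gene length) in the pluripotent wells and 0.16 to 0.28 TPM at day 0. HOXB3, a gene of the hindbrain and throat, was the only one with more than 3 counts in every pluripotent well, with 6, 10 and 10. No HOX gene was called at day 0 against the pluripotent cells, where 2.73% of the 22955 genes tested were called higher and 0.183% lower. A call is an adjusted p under 0.05 over all genes tested in edgeR's quasi-likelihood test together with a log2 fold change of at least 1. At an unadjusted p under 0.05 edgeR gave 1 of the 28 HOX genes in this comparison, and DESeq2 called 0. The counts of HOXB1, HOXB2, HOXB3 and HOXB4 in these wells were 0% to 0.471% of the same gene's counts in the other libraries of the sequencing lane. HOXB1 had 0.0402, 0.0919 and 0 CPM in the pluripotent wells, HOXB2 0, 0.153 and 0 CPM and HOXB4 0.121, 0.0919 and 0.109 CPM. HOXB5 to HOXB9, HOXA3 and HOXA9 had 0 to 3 counts per well in the pluripotent and day 0 wells. Whether such counts are reads of lane neighbours was not tested.

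**Figure D1:**
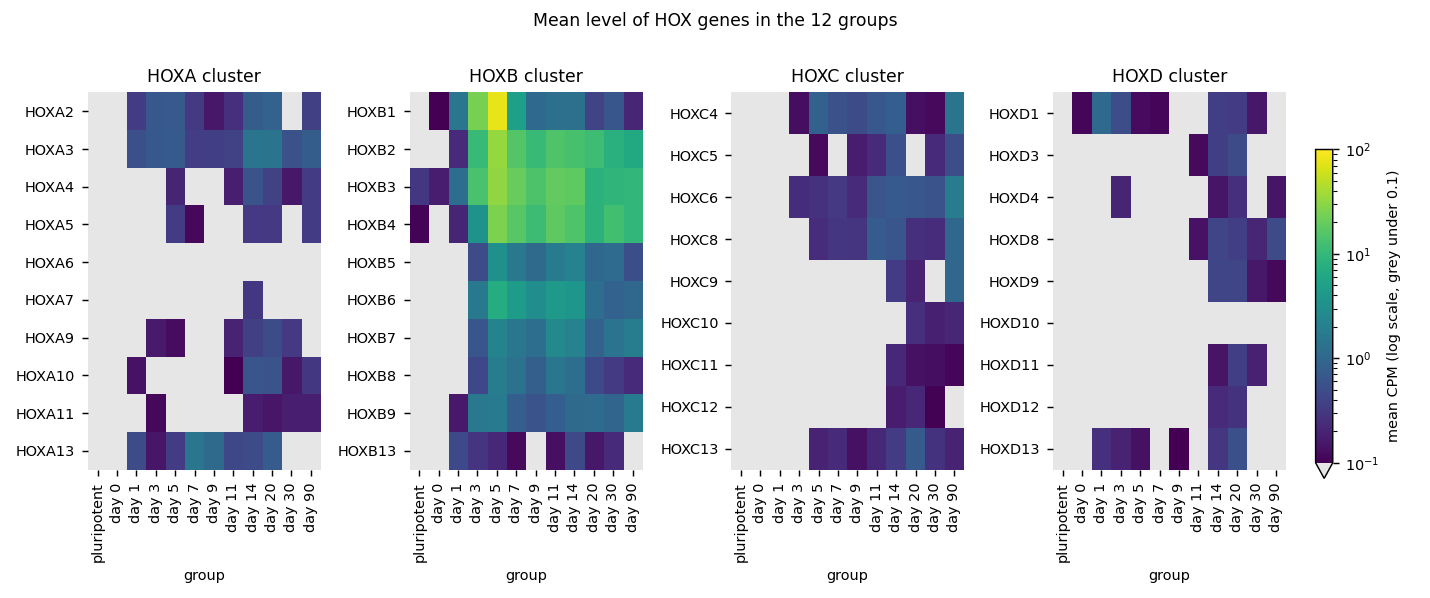
Mean CPM (colour, log scale, grey under 0.1) of HOX genes, in rows by cluster and paralogue number, in the 12 groups in columns. HOXB1 is brightest at day 5 (78.7 CPM), and HOXB2, HOXB3 and HOXB4 remain bright to day 90.

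One day after CHIR99021 was added, genes from both ends of the HOXA and HOXB clusters were higher, at low levels in the genes named here. In all, 9 HOX genes rose between days 0 and 1 and 0 fell, against 3.86% higher and 9.66% lower among all genes tested. The median log2 fold change over the 28 tested was 2.22, against -0.03 over all genes. A HOX gene passes the filter on low counts only where some group is high, so these figures describe the genes and are no test of them. HOXB1, at the 3' end of the HOXB cluster, had 1.45, 1.12 and 1.93 CPM at day 1 and 0.201, 0.0998 and 0 CPM at day 0 (log2 fold change 3.83, SE 0.90, edgeR adjusted p = 0.0018). HOXB3 had 0.775, 1.74 and 1.12 CPM, again above day 0 with 0.134, 0.0998 and 0.276 (2.80, SE 0.60). HOXA3, a gene of the pharyngeal arches, had 26, 11 and 13 counts at day 1 and 1, 0 and 0 at day 0. HOXA2, which patterns the second pharyngeal arch, had 11, 11 and 10 counts and was at 0 in all day 0 wells, which makes it at least 3.41-fold higher against a floor of 3 counts per well.

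Genes of the far ends of the clusters were among the 9. HOXA13, known for its part in the distal limb and genital tract, had 17, 15 and 13 counts at day 1 and 0 in every day 0 well, at least 4.80-fold higher. HOXB13, a tail-end and prostate gene, had 14, 18 and 10 counts against 0, at least 4.48-fold higher. HOXD13, a digit gene too low over the series to be tested, had 7, 8 and 9 counts against 0. The fourth of this paralogue group, HOXC13, had 1, 0 and 2 counts at day 1 and lay under the floor. Thus 3 of 4 genes of paralogue group 13 were above 3 counts in all day 1 wells, and 0 of 8 genes of groups 10, 11 and 12. This contrast depends on the floor. HOXA10 had 5, 3 and 5 counts at day 1 and HOXA11 had 7, 1 and 1, both from 0 in every day 0 well. The rest of these 8 genes had 0 or 1 counts in each day 1 well.

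HOXB7 and HOXB9, genes of the trunk, were called with 9 and 15 counts over the 3 wells and 0 at day 0, which allows no fold for HOXB7 and at least 1.60-fold for HOXB9. The HOXB9 call was lost when any 1 of the day 0 wells was left out (edgeR adjusted p = 0.0555 to 0.0589), and the HOXB7 call in 5 of 6 such fits (0.085 to 0.0945 in edgeR), with a lane term and with no filter on low counts. HOXD1, at the 3' end of the HOXD cluster, was at 0.573, 1.29 and 1.31 CPM at day 1, above all day 0 wells, but day 0 replicate 2 held 0.299 CPM and the gene was not called (edgeR adjusted p = 0.0712). On the TPM values, limma called fewer of the 9: 1 with a pseudocount of 1, and 3 with a pseudocount of 0.1, HOXB1 and HOXB3 among them. Limma took only genes with a mean of at least 0.1 TPM over all wells, so HOXA13 and HOXB13 were not tested by it.

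**Figure D2:**
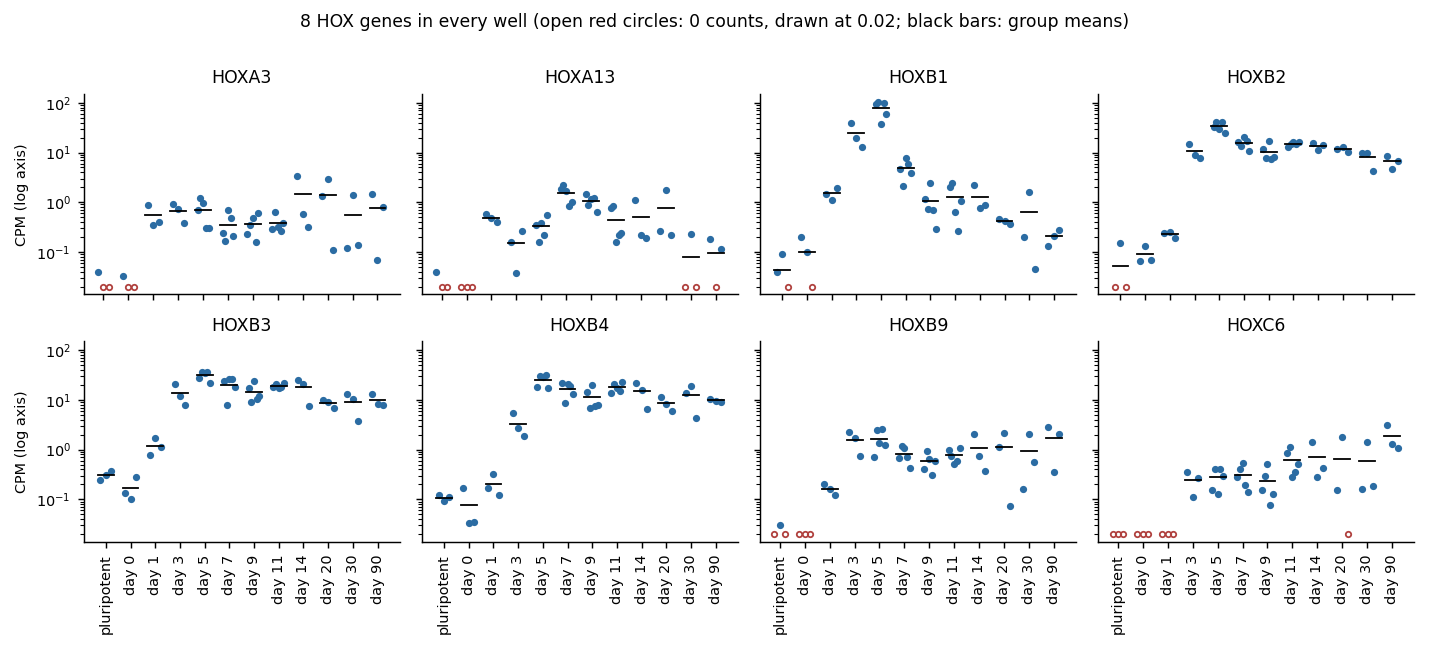
CPM (log scale) of 8 HOX genes in every well by group, with bars at the group means and wells at 0 as open red points at the bottom. HOXB1 forms a single peak at day 5, and HOXB2 and HOXB4 stay above 4 CPM in every well from day 5 on.

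At day 3 almost the whole HOXB cluster was higher. Of the 10 HOXB genes, 9 rose from day 1 to day 3, all but HOXB13. Over the 28 tested HOX genes 11 were higher and 1 lower, against 11% higher and 6.8% lower among all genes, with a median log2 fold change of 1.83 against 0.07.

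HOXB1, which patterns the fourth segment of the hindbrain, had 40.05, 19.96 and 13.2 CPM at day 3, all above the day 1 wells (log2 fold change 4.02, SE 0.67, edgeR adjusted p = 1.37e-05). HOXB2, its neighbour and a known direct target of HOXB1 in the hindbrain, went from 0.236, 0.257 and 0.187 to 15.1, 9.01 and 7.89 CPM (5.53, SE 0.44, adjusted p = 3.5e-12). HOXB3 went from 0.775, 1.74 and 1.12 to 21.2, 12.1 and 7.95 CPM (3.50, SE 0.47), and HOXB4, known for its part in the hindbrain border and in blood stem cells, from 0.168, 0.321 and 0.125 to 5.403, 2.71 and 1.92 CPM (4.00, SE 0.59). In all 4 genes day 3 replicate 1 was the highest well of its group.

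HOXB5 to HOXB9 were at 3.22 CPM or less in every day 3 well. HOXB6 had 3.22, 1.15 and 0.536 CPM against 1 count in the day 1 wells, a ratio of 149 with a 95% exact interval of 26.3 to 5935. HOXB5 had 0.914, 0.149 and 0.377 CPM, HOXB7 0.874, 0.4096 and 0.604 CPM, HOXB8 0.596, 0.558 and 0.189 CPM and HOXB9 2.26, 1.75 and 0.755 CPM. These are genes of the neck and trunk, and their log2 fold changes were 4.93, 2.64, 4.83 and 3.25. Outside HOXB, HOXA9 and HOXC6, both trunk and limb genes, were called from 0 in all day 1 wells, at least 1.70-fold and at least 2.52-fold higher. The HOXA9 call rests on 3, 2 and 8 counts and was lost in 5 of the 6 fits that left out 1 well (edgeR adjusted p = 0.0528 to 0.133), with no filter on low counts and in limma. The HOXB7 call was lost without day 1 replicate 1 (edgeR adjusted p = 0.0577). HOXD4 was too low to be tested and had 4, 4 and 8 counts at day 3 and 0 at day 1. The summed level of the 5 paraxial and posterior mesoderm markers was 29.7 to 56.6 CPM at day 3, against 3.99 to 7.04 CPM at day 1. Of these 5 only TBX6 and FOXC2 were called higher and 0 lower, and the median log2 fold change was 0.54. Neural markers stood at 101.4 to 147 CPM at day 3. None of the 5 paraxial markers was at 0 in all day 3 wells, and of the 5 neural markers NEUROG2 lay at or under the floor. Their part in the HOX values was not tested. With limma on TPM and a pseudocount of 1 the count was 4, HOXB1, HOXB2 and HOXB3 among them.

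HOX expression was highest at day 5, with IWP2 in the medium. The summed HOX level was 59.7 ± 13.9 TPM (SD, n = 5), against 23.8 ± 10.4 TPM at day 3 and 18.7 ± 6.95 TPM at day 7 (SD, n = 3 and 5). HOXB genes made up 92.9% ± 2.01 of it. By mean TPM the order of the HOXB genes above 1 TPM at day 5 was HOXB1 at 23.3 ± 8.25, HOXB2 at 13.5 ± 2.84, HOXB3 at 8.71 ± 1.84, HOXB4 at 3.81 ± 1.10, HOXB6 at 2.73 ± 1.90 and HOXB7 at 1.04 ± 0.46. HOXB1 and HOXB2 overlap in their wells, since day 5 replicate 3 held 10.47 TPM of HOXB1, and the wells of HOXB3 lie above those of HOXB4. Over the whole series 7 HOX genes reached a group mean of 1 TPM in some group, these 6 among them.

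**Figure D3:**
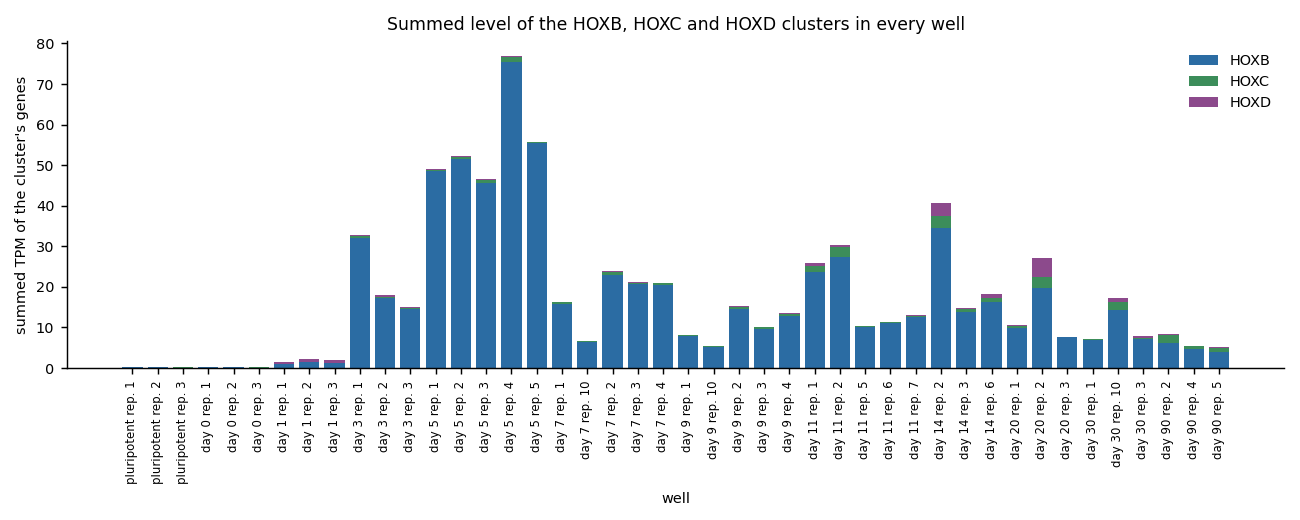
Summed TPM of the HOXB, HOXC and HOXD genes, stacked, in each of the 44 wells in time order. HOXB dominates from day 3 on with the tallest bars at day 5, and the tall bars at days 14, 20 and 30 are single wells.

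Between days 3 and 5, 8 HOX genes rose and 0 fell, against 5.75% and 4.34% of all genes, and 7 of the 8 were HOXB genes. HOXB4 had 18.1, 30.6, 28.3, 32.3 and 17.5 CPM, all above day 3 (log2 fold change 2.92, SE 0.45, edgeR adjusted p = 7.66e-06). HOXB2 had 32.5, 41.95, 30.1, 40.4 and 24.4 CPM, again without overlap (1.67, SE 0.31, adjusted p = 0.000149 in edgeR). HOXB3 with 27.8, 35.9, 34.1, 36.6 and 22.3 CPM and HOXB5 with 2.59, 4.83, 4.84, 2.43 and 1.49 CPM also lay above all day 3 wells (1.19, SE 0.38, and 2.75, SE 0.68).

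In HOXB1, HOXB6 and HOXB7, which were also called, the wells of days 3 and 5 overlapped. HOXB1 had 93.1, 103, 37.6, 99.1 and 60.4 CPM, and replicate 3 fell below the highest day 3 well (1.69, SE 0.55, edgeR adjusted p = 0.029). HOXB6 had 3.29, 7.78, 16.6, 5.96 and 2.86 CPM and HOXB7 0.852, 2.55, 3.08, 2.695 and 1.82 CPM. Without day 3 replicate 2 or without day 3 replicate 3 the count was 3 (HOXB2, HOXB4 and HOXB5), and without day 5 replicate 2 or replicate 4 it was 5. With limma on TPM it was 3 with a pseudocount of 1 and 4 with 0.1. Neural markers were at 30.6 to 39.5 CPM at day 5 and neural crest markers at 1.22 to 6.43 CPM, against 313.7 to 373 and 21.8 to 31.8 CPM in the pluripotent wells. Of the 5 neural markers SOX1 was at or under the floor at day 5, and no neural crest marker was. In the pluripotent wells SOX1, NEUROG2 and the neural crest marker TFAP2B were at or under the floor, so those sums come from the other markers. From day 3 to day 5 the neural marker TUBB3 was called lower and TFAP2B higher, and no other marker of these lists was called. The part of such cells was not tested.

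After day 5 the HOXB cluster split. HOXB1 was almost shut off, while HOXB2, HOXB3 and HOXB4 stayed on. From day 5 to day 7, 3 HOX genes fell and 1 rose, against 0.906% lower and 2.74% higher among all genes. HOXB1 fell to 4.69, 2.13, 7.76, 6.01 and 3.83 CPM, far under every day 5 well, by 4.01 on the log2 scale (SE 0.51, edgeR adjusted p = 3.95e-07). HOXB2 fell less, to 16.1, 13.2, 20.1, 17.4 and 10.9 CPM, by 1.12 (SE 0.26, edgeR adjusted p = 0.00344).

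Set against the day 5 mean, HOXB1 was at 6.21% ± 2.72 at day 7 and 1.34% ± 1.02 at day 9 (SD, n = 5), and at 0.264% at day 90. HOXB2 was at 45.9% ± 10.6, 30.7% ± 12.2 and 19.6% ± 5.53 at the same times. HOXB3 was at 64.3% ± 24.5 at day 7 and 31.2% ± 8.75 at day 90, and HOXB4 at 66.0% ± 22.1 and 38.5% ± 2.94. The difference between these genes was not tested, since all 4 come from the same wells. HOXB1 has no overlapping gene in the GENCODE annotation, on either strand (hg38 chr17:48528526-48531001, minus strand). HOXB3 overlaps HOXB4, HOXB5 and HOXB6 on the same strand, and HOXB4 had fractional counts in 50% of the libraries, so the split of reads among these is an estimate.

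HOXA13 moved the other way. It had 0.348, 0.1597, 0.385, 0.217 and 0.558 CPM at day 5 and 1.87, 2.21, 1.65, 0.825 and 1.01 CPM at day 7, with no overlap (log2 fold change 2.16, SE 0.61, edgeR adjusted p = 0.0269). Its day 7 mean was the highest of any group, and day 9 stayed near it with 1.48, 0.898, 1.14, 1.22 and 0.651 CPM. The call was lost in 6 of the 10 fits that left out 1 well and in the fit with the replicate number as a block. HOXA13 overlaps HOTTIP, a long non-coding RNA on the opposite strand, which was at 0.0389 ± 0.0291 CPM at day 7 (SD, n = 5).

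**Figure D4:**
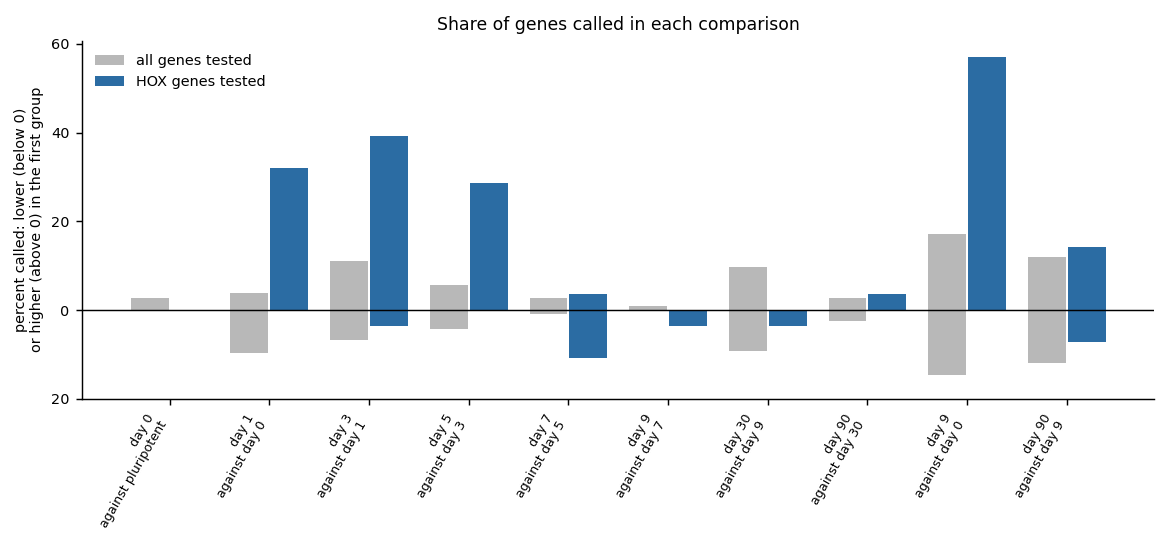
Percent of genes called higher (up) and lower (down) in each of the 10 comparisons, for all 22955 genes tested (grey) and for the 28 HOX genes tested (blue). The HOX bars are taller than the grey ones on the higher side through day 5, with 9, 11 and 8 genes, and day 9 against day 0 has 16 higher.

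From day 7 to day 9 HOXB1 alone was called, lower (by 2.20 on the log2 scale, SE 0.51, edgeR adjusted p = 0.0111), against 1.02% higher and 0.261% lower among all genes. Its day 9 wells had 1.14, 0.727, 2.39, 0.708 and 0.293 CPM, of which replicate 2 overlapped the day 7 wells. With limma on TPM it was not called at either pseudocount.

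Day 9 against day 0 brings the first 9 days together. Here 16 HOX genes were higher and 0 lower, against 17.1% and 14.6% of all genes, and the median log2 fold change of the 28 was 5.06 against 0.08 over all genes. By cluster, 9 of 10 HOXB genes, 4 of 9 tested HOXA genes, 3 of 6 tested HOXC genes and 0 of 3 tested HOXD genes were called. HOXB2 (log2 fold change 6.78, SE 0.49), HOXB3 (6.39, SE 0.57) and HOXB4 (7.07, SE 0.66) had edgeR adjusted p-values of 3.81e-14, 1.02e-11 and 2.86e-11. HOXB2 had 11.7, 7.87, 17.1, 7.35 and 8.004 CPM at day 9, HOXB3 17.2, 9.07, 24.4, 10.7 and 11.8 CPM and HOXB4 14.6, 6.802, 19.7, 7.47 and 7.77 CPM, against at most 0.276 CPM of any of them at day 0. HOXA13 was at least 10.6-fold and HOXB7 at least 12-fold higher than day 0 wells at 0. HOXC4, HOXC6 and HOXC8, genes of the neck and chest, were at least 4.79-fold, 2.30-fold and 2.90-fold higher, from 0 in all day 0 wells. With limma on TPM the count was 3 with a pseudocount of 1 and 8 with 0.1, and HOXA13 was too low in TPM to be tested there.

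HOXB5 to HOXB9 stood at a few CPM or less. HOXB5 had 1.75, 0.655, 2.01, 2.51 and 1.08 CPM at day 7 and 1.55, 0.556, 2.05, 0.629 and 0.618 at day 9, and HOXB6 had 3.300, 2.74, 7.22, 6.64 and 3.13 and 3.56, 1.797, 6.599, 1.85 and 1.17. HOXB7 had 1.87, 1.06, 2.01, 1.53 and 1.15 CPM at day 7 and 1.44, 0.684, 2.76, 0.708 and 0.488 at day 9. For these genes and for HOXB8 (0.835, 1.11, 2.41, 1.85 and 0.522 CPM, then 0.7203, 0.513, 1.68, 0.511 and 0.618) the highest day 9 well was replicate 2, as it was for HOXB1, HOXB2, HOXB3 and HOXB4. HOXB9 had 0.676, 1.19, 1.08, 0.707 and 0.418 CPM at day 7 and 0.417, 0.941, 0.6397, 0.315 and 0.586 at day 9, with replicate 10 the highest.

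Other genes of the same pathway were described by lists. The first is the non-coding genes inside the clusters, 18 listed and 10 tested. HOTAIRM1, a long non-coding RNA of the HOXA cluster, went from 0.0115 ± 0.0199 CPM on day 0 to 10.7 ± 2.36 on day 1, 2.72 ± 2.24 on day 3, 7.23 ± 2.36 on day 5 and 1.66 ± 0.781 on day 7. Its day 1 rise (log2 fold change 9.36, SE 0.98), day 3 fall (-1.98, SE 0.59) and day 7 fall (-2.12, SE 0.46) were called, and its rise at day 5 was not. HOXB-AS1, opposite HOXB2, was at 0.0315 ± 0.0311 CPM at day 1 and 2.27 ± 0.407 at day 3 (log2 fold change 5.93, SE 0.64), and HOXB-AS3, which lies opposite HOXB4 to HOXB6, was at 0 and 0.692 ± 0.196. The strand setting of the authors' counting is not given in the sources used here, so reads of genes that lie opposite each other may be mixed. Of the 10 tested, 3 were higher and 0 lower at day 1 and 3 higher and 1 lower at day 3. For this list and those that follow, the shares over all genes were 3.86% higher and 9.66% lower at day 1, 11% and 6.8% at day 3, and 5.75% and 4.34% at day 5.

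The second group is factors that act on the clusters. CDX1 was at 0.0899 ± 0.0384 CPM on day 0, 103 ± 33.1 on day 1, 4.72 ± 2.19 on day 3 and 0.341 ± 0.107 on day 5, and CDX2 at 0.0910 ± 0.0727, 61.2 ± 8.61, 9.54 ± 5.31 and 2.27 ± 1.10. CDX factors are known to bind posterior HOX genes. CDX1 and CDX2 peaked at day 1 (log2 fold changes 10.08, SE 0.63, and 9.33, SE 1.18), and HOXB1 to HOXB4, which are not posterior genes, at day 5. A link between them was not tested. EVX1, the homeobox gene at the far end of the HOXA cluster beyond HOXA13, is in the list of cluster-linked genes and not among these regulators. It went from 0.0342 ± 0.0345 to 84.2 ± 7.10 CPM at day 1 (11.08, SE 0.96) and 6.95 ± 1.31 at day 3. Among 13 listed regulators, 5 were higher and 3 lower at day 1 (3.86% and 9.66% of all genes), 4 higher and 4 lower at day 3 (11% and 6.8%), and 0 higher and 7 lower at day 5 (5.75% and 4.34%). Of the retinoic acid genes, RARB, a receptor that is itself a target of the signal, went from 0.679 ± 0.143 CPM at day 1 to 16.2 ± 5.19 at day 3 (4.57, SE 0.62) and 39.6 ± 16.4 at day 5. CYP26A1, the enzyme that breaks retinoic acid down, went from 1.79 ± 0.409 CPM at day 1 to 58.2 ± 32.4 at day 3 (5.02, SE 0.73) and 4.98 ± 1.08 at day 5 (-3.55, SE 0.55). Its day 1 level was itself a fall: against day 0, CYP26A1 and the receptor RARG were called lower at day 1 and also at day 9. The receptors RARA, RARB and RXRA were called higher at day 9 against day 0. ALDH1A2, which makes retinoic acid, rose from 0.367 ± 0.107 to 7.03 ± 4.06 CPM at day 3 (4.24, SE 0.95).

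The third group is the 9 TALE partners. At day 0 against the pluripotent cells, 4 of them (PBX4, MEIS1, MEIS2 and PKNOX2) were higher and 0 lower, against 2.73% and 0.183% of all genes. Of the 9, 0 were higher and 2 lower at day 1, and 6 were higher and 0 lower at day 3. MEIS1 went from 1.59 ± 0.0963 CPM at day 1 to 132 ± 41.1 at day 3 (log2 fold change 6.37, SE 0.27) and 184 ± 39.3 at day 5. MEIS2 went from 2.82 ± 0.923 to 71.8 ± 19.3 (4.67, SE 0.24) and 127 ± 23.3, and unlike HOXB1 it was higher still at day 90, at 254 ± 55.0 CPM. PBX3 rose from 25.1 ± 3.26 to 76.1 ± 21.7 (1.60, SE 0.37) and then to 183 ± 57.8 CPM (1.27, SE 0.34). The 13 chromatin regulators, the Polycomb and MLL proteins among them, had 1 higher and 1 lower at day 1, near the 3.86% and 9.66% of all genes, and 3 higher and 0 lower at day 3, against 11% and 6.8%. The 9 homeobox genes linked to the clusters or of the ParaHox group had 3 higher at day 1 (EVX1, MNX1 and GBX2) and 0 lower.

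**Figure D5:**
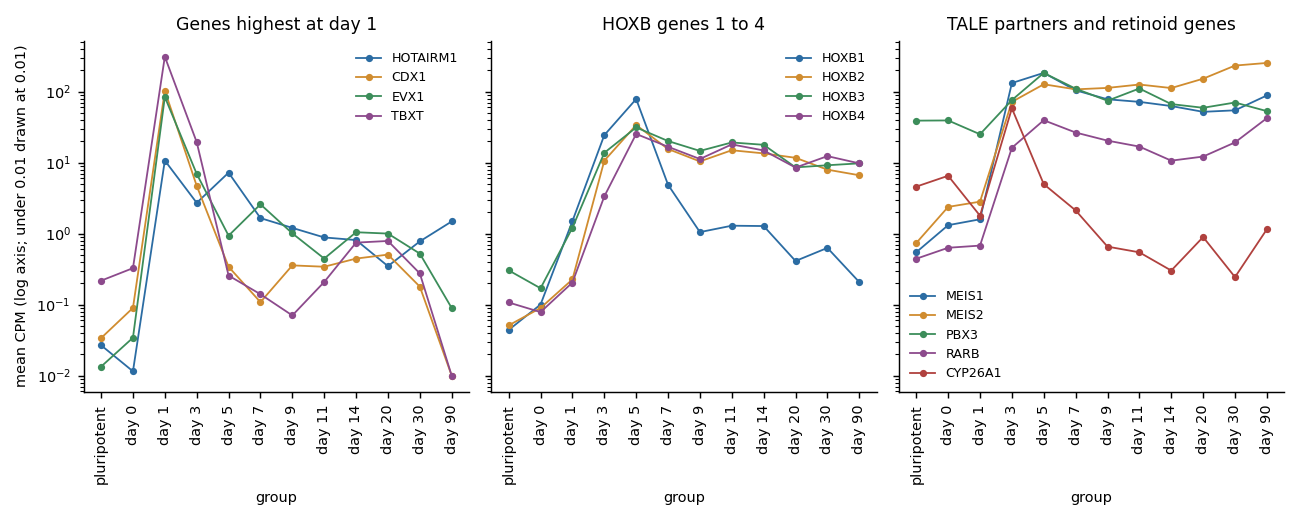
Group mean CPM (log scale, under 0.01 drawn at 0.01) over the 12 groups for HOTAIRM1, CDX1, EVX1 and TBXT, for HOXB1 to HOXB4, and for MEIS1, MEIS2, PBX3, RARB and CYP26A1. HOTAIRM1 and CDX1 peak at day 1, HOXB1 to HOXB4 at day 5, and HOXB1 alone of these 4 drops below 1 CPM by day 90.

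By likeness of the group mean log2(TPM + 1) over the 12 groups, among 10383 protein-coding genes outside the clusters, the genes nearest HOXB1 were PGA5 (Pearson r = 0.976), SERINC3 (0.965) and TRIM17 (0.939). Nearest HOXB2 were RGS4 (0.974), ITGA8 (0.968) and LRRC32 (0.964). The 12 points are means over the same wells for each gene, so the names are a description and carry no test.

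The wells of low depth bear on days 14, 20 and 30. Day 14 replicate 2 held 33 HOX genes above its 3-count floor, against 20 and 22 in the other wells of the group, and 12.3 CPM of HOXC plus HOXD genes, against 2.66 and 3.43. Day 20 replicate 2 held 29 against 18 and 10 genes and 15.0 CPM against 1.65 and 0.548. Day 30 replicate 10 held 27 against 11 and 12 genes and 6.92 CPM against 0.448 and 1.39. These wells also had totals of 8679310, 6937136 and 11715812 counts and RIN of 7.4, 8 and 7.4, and long non-coding RNA took 13.3%, 13.8% and 1.19% of their counts, against 0.926% to 1.497% in the other 6. With these wells included, 7 of the 39 genes have their highest mean CPM at day 14 and 12 at day 20. The part of depth and RNA quality in these values was not tested, and calls are given with and without the 3 wells.

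HOXB2, HOXB3 and HOXB4 stayed above 3 CPM in every well of the later culture, and all 3 were lower on day 90 than on day 11. HOXB2 had 12.6, 15.1, 16.2, 14.9 and 15.99 CPM on day 11, 15.4, 11.1 and 14.04 on day 14, 11.8, 12.99 and 10.3 on day 20, 9.81, 9.92 and 4.17 on day 30, and 8.38, 4.66 and 6.89 on day 90. HOXB3 had 17.98, 20.8, 17.5, 18.4 and 21.5 CPM on day 11, 24.6, 21.3 and 7.55 on day 14, 9.98, 8.96 and 6.79 on day 20, 13.2, 10.5 and 3.797 on day 30, and 12.9, 8.31 and 8.07 on day 90. HOXB4 had 13.9, 21.2, 17.4, 15.4 and 22.5 CPM on day 11, 22.2, 15.9 and 6.49 on day 14, 11.3, 8.34 and 5.91 on day 20, 13.97, 18.8 and 4.31 on day 30, and 10.6, 9.44 and 9.24 on day 90. The day 90 wells of all 3 lay below those of day 11, and the day 20 wells of HOXB3 and HOXB4 did too, which is a description of steps outside the 10 comparisons. None of the 3 was called by edgeR in day 30 against day 9 or in day 90 against day 9, but limma on log2(TPM + 0.1) called HOXB2 lower in the latter. HOXB1 was low throughout, with 2.003, 2.49, 0.639, 0.267 and 1.07 CPM on day 11, 2.21, 0.754 and 0.874 on day 14, 0.4604, 0.4104 and 0.365 on day 20, 0.204, 1.64 and 0.0463 on day 30, and 0.134, 0.209 and 0.2801 on day 90.

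HOXB6 at 6.44, 8.81, 1.36, 1.69 and 2.42 CPM and HOXB7 at 3.82, 3.92, 1.32, 1.202 and 2.69 CPM at day 11 were uneven. HOXB5 had 1.96, 2.21, 1.12, 1.42 and 1.97 CPM, HOXB8 2.24, 2.68, 0.679, 0.623 and 1.35 CPM and HOXB9 1.002, 0.738, 0.519, 0.579 and 1.07 CPM at the same day. Replicates 1 and 2 were the high wells for HOXB6, HOXB7 and HOXB8. HOXC8 had 0.906, 2.21, 0.399, 0.08902 and 0.104 CPM there, with the same wells high. The same 2 wells held 4499 and 8583 CPM of endoderm and liver markers, against 158 to 173 CPM in the other 3, and 7689.95 and 5053 CPM of cardiomyocyte markers, against 18554 to 19581 CPM. The part of such cells in the HOX values was not tested.

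Day 30 against day 9 gave 1 HOX call, HOXA13, lower, against 9.69% of all genes higher and 9.25% lower. It had 0, 0.234 and 0 CPM at day 30 and fell by 4.13 on the log2 scale (SE 0.98, edgeR adjusted p = 0.0013). Without day 30 replicate 10, and without the 3 shallow wells, HOXB1 was called lower as well, for a count of 2. With limma on TPM the count was 0 at both pseudocounts, but HOXA13 was too low in TPM to be tested there.

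At day 90 the HOXC genes made up a larger share of the HOX level than at day 9. HOXC made up 17.3% ± 5.91 of the summed HOX TPM at day 90 (SD, n = 3) and 3.28% to 4.90% at day 9, and HOXB 71.7% ± 6.90. The total was low in TPM, 6.92 ± 1.95, but in CPM it was 42.5 ± 15.2, against 48.4 ± 22.2 at day 9. The HOXC sum itself was 1.27 ± 0.784 TPM at day 90 and 0.42 ± 0.152 at day 9. At day 14, with the well of low depth included, it was 1.56 ± 1.28 TPM. Against day 9, 4 HOX genes were higher and 2 lower, against 11.9% higher and 12% lower among all genes, a total of 21.4% against 23.9% of all genes, so the share was close to the background.

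HOXC6, a chest-level gene, had 3.18, 1.33 and 1.095 CPM at day 90 and 0.152, 0.299, 0.505, 0.0786 and 0.1302 at day 9, with no overlap (log2 fold change 2.98, SE 0.81, edgeR adjusted p = 0.00372). HOXC9 had 1.75, 0.487 and 0.672 CPM against 0.0379, 0.0428, 0.0337, 0 and 0.228 (3.70, SE 1.12, adjusted p = 0.00811 in edgeR). HOXD8 had 0.717, 0.487 and 0.2801 CPM against 0, 0, 0, 0.0393 and 0.0651 (4.23, SE 1.14, edgeR adjusted p = 0.0029), and HOXA10, an abdominal and uterine gene, 0.269, 0.487 and 0.168 CPM against 0, 0, 0.0337, 0.0786 and 0 (3.50, SE 1.39, adjusted p = 0.044 in edgeR). These are trunk genes, and each was above all its day 9 wells. HOXA13 (-3.29, SE 0.88) and HOXB1 (-2.35, SE 0.86) were lower. The HOXA10 call was lost in 7 of the 8 fits that left out 1 well (edgeR adjusted p = 0.0515 to 0.125), with the replicate block (0.095), the lane term (0.0728) or no filter on low counts (0.0587), and in DESeq2 (adjusted p = 0.0699). The HOXB1 call was lost without day 9 replicate 2 or any 1 of the 3 day 90 wells (edgeR adjusted p = 0.0585 to 0.118), and in limma at both pseudocounts.

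Day 90 replicate 2 was the highest well for HOXC4, HOXC6, HOXC8 and HOXC9. Without it the count was 3 (HOXA13, HOXC6 and HOXD8), and HOXC9 had a log2 fold change of 2.95 and an edgeR adjusted p of 0.0666. The same well held 12644 CPM of fibroblast and smooth muscle markers and 69.7 CPM of intermediate mesoderm markers, against 2136 and 6452 CPM and 11.5 and 28.0 CPM in the other day 90 wells. Intermediate mesoderm markers were at 4.17 to 6.97 CPM at day 9. Of the 4 intermediate mesoderm markers only OSR1 was called higher at day 90 against day 9, and LHX1 was called lower. Of the 5 fibroblast and smooth muscle markers DCN and COL3A1 were called higher and 0 lower. No marker of either list was at or under the floor in all day 90 wells, and the part of such cells in the HOXC values was not tested. A filter of at least 10 counts in 3 libraries also gave 3, and limma on TPM gave 0 and 2. HOXA10, HOXA13, HOXC9 and HOXD8 were too low in TPM to be tested by limma.

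From day 30 to day 90 HOXC4, a gene of the neck level, was the only HOX gene called, against 2.65% higher and 2.44% lower among all genes. It had 2.64, 0.202 and 1.405 CPM at day 90 and 0.204, 0.156 and 0 at day 30, and its wells overlapped (log2 fold change 3.55, SE 1.07, edgeR adjusted p = 0.0336). HOXC4 shares sequence with HOXC5 and HOXC6 in overlapping models, and its counts were partly fractional. Without day 90 replicate 2 it had 2.73 and an edgeR adjusted p of 0.153. The count was 0 without day 30 replicate 3, day 90 replicate 2 or day 90 replicate 5, 3 without day 30 replicate 10 (HOXC4, HOXC6 and HOXC9) and 4 without the 3 shallow wells (those and HOXB9).

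HOXB5 to HOXB9 ended low and uneven. HOXB5 had 4.22, 1.904 and 0.375 CPM on day 14, 1.23, 1.505 and 0.402 on day 20, 0.774, 1.41 and 1.16 on day 30, and 0.852, 0.0696 and 0.672 on day 90. HOXB6 had 5.93, 4.17 and 1.19 CPM on day 14, 2.11, 1.16 and 0.365 on day 20, 0.326, 0.937 and 1.39 on day 30, and 1.85, 0.593 and 0.672 on day 90. HOXB7 had 3.52, 2.26 and 0.624 CPM on day 14, 0.959, 1.23 and 0.475 on day 20, 0.977, 2.26 and 0.8799 on day 30, and 3.496, 0.557 and 1.34 on day 90. Day 90 replicate 2 was the highest day 90 well in all 3. HOXB8 had 2.21, 1.33 and 0.125 CPM on day 14, 0.384, 0.958 and 0.0365 on day 20, 0.122, 0.3905 and 0.463 on day 30, and 0.493, 0.139 and 0.05603 on day 90. HOXB9 had 2.11, 0.754 and 0.375 CPM on day 14, 1.11, 2.19 and 0.07302 on day 20, 0.163, 2.11 and 0.556 on day 30, and 2.82, 0.348 and 2.02 on day 90. The day 14, 20 and 30 wells of low depth were the highest of their group for HOXB9, which in mean stood at 104% of its day 5 level at day 90.

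HOXA3 and HOXA9 were low at every time. HOXA3 had 0.914, 0.745 and 0.377 CPM on day 3, 0.697, 1.24, 0.985, 0.304 and 0.298 on day 5, 0.239, 0.164, 0.682, 0.471 and 0.209 on day 7, and 0.227, 0.342, 0.471, 0.157 and 0.618 on day 9. It then had 0.286, 0.646, 0.319, 0.267 and 0.3798 CPM on day 11, 3.42, 0.575 and 0.312 on day 14, 1.305, 2.87 and 0.1095 on day 20, 0.122, 1.41 and 0.139 on day 30, and 1.43, 0.0696 and 0.784 on day 90. Its highest well was day 14 replicate 2. HOXA9 had 0.119, 0.0745 and 0.302 CPM on day 3, 0.0387, 0.1597, 0.0856, 0.304 and 0.0372 on day 5, 0, 0.123, 0.0718, 0.0786 and 0 on day 7, and 0, 0.0428, 0.135, 0.157 and 0 on day 9. It then had 0.286, 0.277, 0.1198, 0.178 and 0.104 CPM on day 11, 0.804, 0 and 0.312 on day 14, 0.115, 1.23 and 0.1095 on day 20, 0, 0.937 and 0 on day 30, and 0.134, 0.0696 and 0 on day 90, and was at 0 in 15 of the 44 wells.

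By position, the order in which HOX genes first passed the floor in every well of a group ran only partly from low to high numbers. HOXB3 did so in the pluripotent wells and 11 at day 1, among them HOXA2, HOXA3, HOXA13, HOXB1, HOXB2, HOXB4, HOXB9, HOXB13, HOXD1 and HOXD13. At day 3 HOXB5, HOXB6, HOXB7, HOXB8 and HOXD4 joined them. HOXC4 and HOXC13 followed at day 5, HOXC6 at day 7, HOXC8 at day 9, HOXC9 at day 14 and HOXD8 at day 90. Within HOXB the genes HOXB1 to HOXB4 preceded HOXB5 to HOXB8, but HOXB9 and HOXB13 passed with the first group, and within HOXC the genes HOXC4, HOXC6, HOXC8 and HOXC9 followed the numbers, while HOXC13 passed with HOXC4 and HOXC5 passed in no group. A gene near the floor can pass or miss it by counting error alone, and the floor lay at 0.0919 to 0.410 CPM depending on depth.

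The remaining 16 genes did not pass the floor in all wells of any group. Of these HOXA4, HOXA5, HOXA9, HOXA10, HOXA11, HOXC5 and HOXD9 were tested, and HOXA6, HOXA7, HOXC10, HOXC11, HOXC12, HOXD3, HOXD10, HOXD11 and HOXD12 were not. HOXD10, a limb gene, was at 0 in 39 of 44 wells, and HOXA6 in 38. The highest group mean among the 16 was 0.619 CPM (HOXA10 at day 14) and rested on day 14 replicate 2, which held 1.61 CPM against 0 and 0.2497.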

How the data were processed

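RNA was sequenced from 44 wells of H1 cells as stranded total RNA, 150 bp paired-end, per the labels' protocols. Per the submitters' processing notes the tools were cutadapt, STAR 2.5.2b and RSEM 1.2.31, with the genome build hg38; the annotation and the strand setting of the counting are not given in the sources used here. The authors deposited estimated counts per gene (RSEM expected counts, 93.8% of values whole), which were rounded, TPM values, and a sample table from which lane and RIN were taken. Symbols, gene types and overlaps came from GENCODE release 29, which held 56769 of the 60499 identifiers and lacked 3730. Promoters came from RefSeq.

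Genes were filtered with filterByExpr, scaled by TMM and tested with edgeR 4.0.16 (R 4.3.3) in 1 quasi-likelihood fit of all 44 libraries with a mean per group, for 10 contrasts fixed by the time course. P-values were Benjamini-Hochberg adjusted over 22955 genes, and CPM used the TMM-scaled totals. Limma 3.58.1, DESeq2 1.42.0, RLE scaling, other filters, the 2 groups alone, a lane term, a replicate block and leaving out single wells were alternatives. A further one, without the 3 libraries of lowest total, was chosen after seeing the data. Limma took only genes with a mean of at least 0.1 TPM over all wells. Levels are means with SD over wells, floors are 3 counts, and intervals of ratios are exact conditional ones that cover counting error only.

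The members and lists were chosen with earlier results of these data known. Values by well are given for HOXB1, HOXB2 and the 12 HOX genes with the highest group mean TPM (by range where a group is near 0), called genes are named, and the rest are given by range and count; counts cover all members, but some genes are not reported here. The 3 protein-coding genes most like HOXB1 and HOXB2 were taken by Pearson r among those with a group mean of at least 5 TPM. Lists were TALE partners, upstream regulators, cluster-linked and ParaHox genes, chromatin regulators, non-coding genes of the clusters, and marker lists of cell types. Whether replicate numbers pair wells was checked by the correlation of same-numbered wells' deviations from their group means, which ran from -0.176 to 0.454 and was not above 0.1 in every pair of most contrasts, so no block was used.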

Additional observations from a re-analysis of the deposited data

Results flagged for a closer look

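Among the 48 sets of 5 wells examined (HOX genes in the groups of days 5, 7, 9 and 11), 1 held a well far from the others. HOXB8, a gene of the trunk and of early blood progenitors, had 1.68 CPM in day 9 replicate 2, while the other 4 wells had 0.511 to 0.720 CPM. The gap was 0.822 of the range, above the critical value of 0.71 for 5 values. Chance marks about 1 in 20 such sets. The same well was the highest of day 9 for HOXB1 to HOXB7 too. It held 6103 CPM of endoderm and liver markers, against at most 1754 CPM in the other 4 wells, 4808 CPM of fibroblast and smooth muscle markers, against at most 2455 CPM, and 15.9 CPM of blood markers, against at most 4.74 CPM. The part of such cells was not tested.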

How the results depend on the processing

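All counts are of HOX genes called, with edgeR unless named. A step is named by its later day and compares neighbouring groups as in the report, and a span covers day 0 to 9 or day 9 to 90. Leaving out 1 well at a time gave 0 to 0 in the step to day 0 (0 with all wells), 7 to 9 in the step to day 1 (9), 10 to 12 in that to day 3 (12), 3 to 9 in that to day 5 (8), 3 to 4 in that to day 7 (4) and 1 to 1 in that to day 9 (1). In the step to day 30 it gave 1 to 2 (1), in the step to day 90 0 to 3 (1), in the first span 16 to 17 (16) and in the second 3 to 6 (6). Limma on log2(TPM + 1) gave 1 in the step to day 1, 4 in that to day 3, 3 in that to day 5, 0 in those to days 9, 30 and 90, 3 in the first span and 0 in the second. With a pseudocount of 0.1 it gave 3 in the step to day 1, 4 in that to day 5, 0 in those to days 9, 30 and 90, 8 in the first span and 2 in the second (HOXB2 and HOXB8, which the counts did not call). These fits test fewer HOX genes, 16 against 28. Without the 3 shallowest wells, the step to day 30 gave 2 and that to day 90 gave 4, and no called gene was lost. A fit of the 2 groups alone, and one with a lane term, gave 0 in the step to day 90, and a filter of 10 counts gave 3 in the second span. The cause was not tested.

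With the replicate number as a block, which pairs wells only by number, the counts were 0, 10, 13, 10, 3, 1, 2 and 1 in the 8 steps and 17 and 7 in the spans, and the 2 in the step to day 30 were HOXA13 and HOXD8. Of 58 pairs of gene and comparison called, 19 were called under every setting that tested them, 39 were lost under at least 1, and 0 changed direction. Limma took only genes with a mean of at least 0.1 TPM, so HOXA13, HOXB13 and HOXD8, among others, had no such test. Their pairs could be lost only under the other settings. RLE instead of TMM scaling moved the median of all genes by at most 0.0766 on the log2 scale, and TPM instead of counts by -0.63 to 0.23, so TPM folds are relative to that shift. Depth limits the low genes: 3 counts are 0.0919 to 0.410 CPM, and 16 HOX genes (7 of HOXA, 4 of HOXC and 5 of HOXD) never passed 3 counts in all wells of a group.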
